A study of Homo sapiens with 12 samples.

Results

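GLRB, GABRQ, GABRE, GABRA3, SCN9A, TRPM6, TRPM7 and CACNG7 encode subunits of ion channels that are best known from neurons and transporting epithelia. They were taken by symbol from the deposited gene counts, 8 genes of the 59050 symbols in each table, and they were chosen by their counts in knockout against wild type: GLRB was higher in knockout in both lines, GABRQ in A549 and SCN9A in H1299. Their knockout values below are therefore a description without a test. The difference between the wild-type lines was not the rule and is tested. The choice of GLRB, GABRQ and SCN9A did use the same wild-type counts, so their tests between lines are not independent of it. The study compared PA200 knockout with wild-type cells in A549 and NCI-H1299 (H1299), a pair of human lung cancer lines. In the knockouts CRISPR/Cas9 had disrupted PSME4, the gene for this proteasome activator of the nucleus. Poly-A RNA was sequenced in 12 libraries, 3 for each line and genotype, after 48 h of culture. No other allele or agent is named for any group. Whether the libraries within a group are clones or repeat cultures is not stated, and p-values therefore cover only library-to-library spread.

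Glycine and GABA-A receptors are pentameric chloride channels opened by their transmitter, and they carry fast inhibition in the nervous system. Voltage-gated sodium channels drive the upstroke of the action potential, TRPM6 and TRPM7 are cation channels fused to a kinase that pass magnesium, and the CACNG proteins are small membrane partners of calcium channels or AMPA-type glutamate receptors. Several of these genes are also transcribed in tumour cells that do not fire action potentials, where transcript counts say nothing about channels at the surface.

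The promoters of the genes that defined the choice, with GABRE as the most abundant of the 4 receptor genes in A549, are shown because the text returns to their neighbours and chromosome arms. They are RefSeq windows on GRCh38 of 250 bases before to 50 bases after a start site, and CpG dinucleotides are in capitals. RefSeq windows were matched for 6 of the 8 genes, 9 windows in all, and those of GABRA3 and CACNG7 were not analysed here. The GLRB window is chr4:157075900-157076199 on the plus strand, GABRQ is chrX:152637645-152637944 on the plus strand, GABRE is chrX:151974627-151974926 on the minus strand and SCN9A is chr2:166375895-166376194 on the minus strand.
GLRB: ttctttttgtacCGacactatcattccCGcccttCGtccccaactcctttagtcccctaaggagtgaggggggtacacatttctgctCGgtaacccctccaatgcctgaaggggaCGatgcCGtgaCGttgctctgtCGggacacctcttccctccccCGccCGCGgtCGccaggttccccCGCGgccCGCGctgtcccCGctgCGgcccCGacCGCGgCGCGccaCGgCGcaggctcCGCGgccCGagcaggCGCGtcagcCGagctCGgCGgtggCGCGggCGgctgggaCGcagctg
GABRQ: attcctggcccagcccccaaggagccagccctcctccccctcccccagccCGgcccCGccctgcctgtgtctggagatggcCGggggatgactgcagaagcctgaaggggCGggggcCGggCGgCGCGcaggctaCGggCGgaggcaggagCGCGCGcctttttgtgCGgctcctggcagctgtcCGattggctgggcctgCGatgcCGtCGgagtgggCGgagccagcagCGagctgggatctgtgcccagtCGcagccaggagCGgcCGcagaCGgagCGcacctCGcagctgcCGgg
GABRE: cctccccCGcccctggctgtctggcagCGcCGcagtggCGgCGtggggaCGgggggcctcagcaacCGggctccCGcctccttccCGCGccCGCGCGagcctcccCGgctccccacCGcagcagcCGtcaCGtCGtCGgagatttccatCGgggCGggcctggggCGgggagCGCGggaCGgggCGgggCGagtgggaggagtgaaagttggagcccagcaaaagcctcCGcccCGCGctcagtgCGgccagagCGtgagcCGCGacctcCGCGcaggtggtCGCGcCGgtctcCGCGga
SCN9A: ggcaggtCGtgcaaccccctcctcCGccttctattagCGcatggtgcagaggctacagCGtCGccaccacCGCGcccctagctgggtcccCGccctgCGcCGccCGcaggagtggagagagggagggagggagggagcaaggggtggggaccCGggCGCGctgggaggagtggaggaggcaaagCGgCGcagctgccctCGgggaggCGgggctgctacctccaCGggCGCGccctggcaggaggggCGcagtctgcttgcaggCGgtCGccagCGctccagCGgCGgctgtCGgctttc
All 4 windows were above the median in CpG, with 37 CpG in GLRB, 27 in GABRQ, 41 in GABRE and 28 in SCN9A. The median was 14 over 35114 RefSeq windows of the same length. Of all windows, 88.7% held fewer CpG than GLRB, 71.8% than GABRQ, 93.3% than GABRE and 73.8% than SCN9A. The GC content of these 4 windows was 69.7%, 73.7%, 76.7% and 73.3%, against a median of 58.7%. The GC box GGGCGG, searched on both strands, was found 3 times in GLRB, 5 times in GABRQ, 5 times in GABRE and 2 times in SCN9A, and 45% of all windows held it at least once. The TATA box TATAAA was in none of the 4 windows and in 11.5% of all windows. The left and right parts of the RE1 element, which the neuronal gene repressor REST binds, were in none of the 4 and in 0.376% and 0.259% of all windows. The TRPM6 and TRPM7 windows differed from each other: the TRPM6 windows held 6, 10 and 28 CpG and the TRPM7 window 48. A match to letters is a description and not a binding site, and a window without a match says nothing about a factor.

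Libraries held 16599401 to 40983933 counts. In A549 the knockout libraries (30645131 to 40983933) were all deeper than the wild-type ones (16599401 to 21112339). Levels below are in CPM, counts scaled to library size by TMM over all 12 libraries. PSME4 was lower in knockout in both lines, 20.6 ± 3.25 against 178 ± 30.9 CPM in A549 and 51.8 ± 2.3 against 238 ± 20.1 CPM in H1299 (SD, n = 3). CDKN2A had 0 counts in all 6 A549 libraries and 45.6 ± 4.35 CPM in H1299 wild type. Replicate 1 of A549 wild type was the lowest of its group for 6 of the 7 genes with counts in A549. Of 19 neuronal markers, STMN2, ELAVL4 and INSM1 had 0 counts in all 12 libraries. Above 1 CPM on average were 9 in A549 wild type, 8 in A549 knockout and 9 in each H1299 group. The summed level of the list was 180 to 214 CPM in A549 wild type, 188 to 214 in A549 knockout, 402 to 483 in H1299 wild type and 380 to 448 in H1299 knockout. Single markers went both ways. Of 11 tested between the wild-type lines, 7 were called higher and 3 lower in H1299, where 31.8% and 33.7% of all genes were. RBFOX3 was at 20.6 CPM in A549 wild type and 0.0406 in H1299 wild type, and INA was at 25.7 and 165. Of 10 lung epithelial markers, NKX2-1 had 0 counts in all A549 libraries, and SFTPA1 and SFTPC had 0 in all H1299 libraries. The summed level was 4120 to 6770 CPM in A549 wild type, 6050 to 6630 in A549 knockout, 256 to 396 in H1299 wild type and 132 to 197 in H1299 knockout. Keratins made up most of the A549 sum, with KRT7, KRT8 and KRT18 at 1680, 2040 and 1780 CPM in A549 wild type. In the same group SFTPA1, SFTPB, SFTPC and NAPSA were at only 0, 0.0164, 0.0327 and 0.89 CPM. In bulk RNA, fewer cells of a type and less RNA per cell cannot be told apart.

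**Figure D1:**
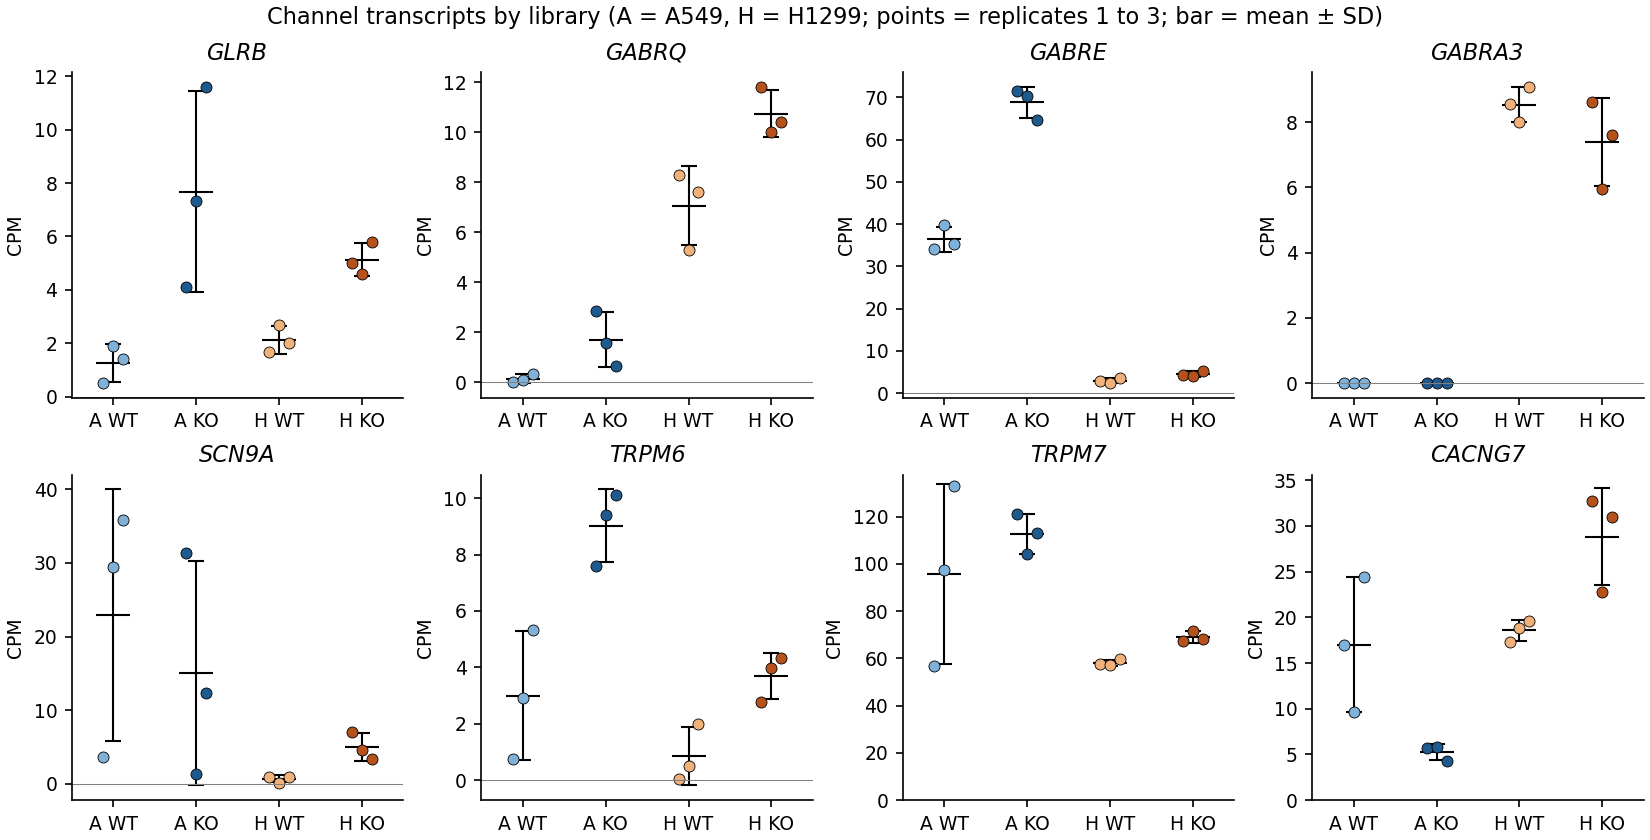
Level in CPM (linear axes from 0) of the 8 channel genes in each of the 12 libraries, with the mean and SD of each group of 3. GLRB and TRPM6 are higher in both knockouts than in the wild type of the same line, GABRA3 is at 0 in all A549 libraries, and SCN9A in A549 spreads from 1.34 to 35.8 CPM across genotypes.

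GLRB encodes the beta subunit of the glycine receptor, which does not form a channel alone and ties the receptor to the scaffold gephyrin. The gene lies at chr4:157076057-157172090 (GRCh38, plus strand). In A549 it had 8, 39 and 25 counts in the wild-type libraries and 122, 219 and 467 in the knockout libraries, or 0.504, 1.91 and 1.4 CPM against 4.09, 7.34 and 11.6 CPM. In H1299 it had 51, 94 and 45 counts in wild type and 154, 111 and 185 in knockout, or 1.68, 2.69 and 2 CPM against 4.99, 4.58 and 5.8 CPM. Every knockout library was above every wild-type library of its line, and the A549 knockout libraries differed 2.84-fold among themselves. The fitted log2 fold change was 2.55 (SE 0.5) in A549 and 1.26 (SE 0.2) in H1299. Ordered by mean level, A549 knockout (7.68 ± 3.78 CPM) and H1299 knockout (5.12 ± 0.624 CPM) overlapped, H1299 wild type (2.13 ± 0.516 CPM) lay below both, and A549 wild type (1.27 ± 0.714 CPM) overlapped H1299 wild type.

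GLRB was measured without its usual partners. The alpha subunits GLRA1, GLRA2, GLRA3 and GLRA4 had at most 4 counts in any of the 12 libraries, so GLRB was the single glycine receptor subunit at 1 CPM or more in each of the 4 groups. GLRA3 had 2 to 4 counts in the A549 knockout libraries and 0 to 2 in A549 wild type, which is at the level of single reads. None of the 4 alpha genes passed the low-count filter in any comparison.

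GABRQ encodes the theta subunit of the GABA-A receptor, at chrX:152638183-152657534 (GRCh38, plus strand). In A549 wild type it had 0, 2 and 6 counts, and in A549 knockout 85, 47 and 27, or 2.85, 1.58 and 0.672 CPM. The lowest knockout library stood above the highest wild-type library (0.336 CPM), and the knockout libraries spread 4.24-fold. The fitted log2 fold change of 3.45 (SE 0.82) rests on 8 wild-type counts in all. It was 2.86 without knockout replicate 1 and 4.83 without wild-type replicate 3. H1299 had far more GABRQ, with 251, 185 and 171 counts in wild type and 363, 243 and 332 in knockout, or 8.29, 5.3 and 7.6 CPM against 11.8, 10 and 10.4 CPM. The H1299 groups did not overlap either, with a log2 fold change of 0.61 (SE 0.17). The 4 groups did not overlap for GABRQ at any step of their order, from H1299 knockout (10.7 ± 0.91 CPM) through H1299 wild type (7.06 ± 1.57 CPM) and A549 knockout (1.7 ± 1.09 CPM) to A549 wild type (0.145 ± 0.173 CPM).

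GABRE encodes the epsilon subunit, a rarely used part of the GABA-A receptor, and lies at chrX:151953124-151974680 (minus strand). It was the most abundant of the 4 receptor genes in A549, with 539, 811 and 631 counts in wild type and 2135, 2092 and 2599 in knockout. These are 34, 39.8 and 35.3 CPM against 71.5, 70.2 and 64.7 CPM. The groups were far apart relative to their spread, and the log2 fold change was 0.9 (SE 0.12). In H1299 the counts were 89, 83 and 79 in wild type and 131, 100 and 167 in knockout, or 2.94, 2.38 and 3.51 CPM against 4.24, 4.12 and 5.24 CPM. The H1299 groups were also separate, at a log2 fold change of 0.64 (SE 0.18), and all 4 groups were separate in the order A549 knockout, A549 wild type, H1299 knockout, H1299 wild type. The microRNA genes MIR224 and MIR452 lie inside GABRE on the same strand and overlap its exons by 81 and 85 bases.

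GABRA3 encodes an alpha subunit of the GABA-A receptor, at chrX:152166234-152451358 (minus strand). It had 0 counts in all 6 A549 libraries, so knockout could not be compared there. In H1299 it had 259, 279 and 204 counts in wild type (8.56, 8 and 9.07 CPM) and 266, 144 and 243 in knockout (8.61, 5.94 and 7.62 CPM). The H1299 groups overlapped, and the log2 fold change was -0.2 (SE 0.15). GABRA3 was thus the one receptor gene of the group whose knockout mean in H1299 was below that of wild type.

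SCN9A encodes a voltage-gated sodium channel of pain-sensing neurons, at chr2:166195185-166376001 (minus strand). In H1299 it had 29, 5 and 22 counts in wild type and 219, 112 and 108 in knockout, or 0.958, 0.143 and 0.978 CPM against 7.09, 4.62 and 3.39 CPM. The groups were separate, with a log2 fold change of 2.93 (SE 0.5). In A549 it had 57, 598 and 639 counts in wild type and 938, 40 and 494 in knockout, or 3.59, 29.4 and 35.8 CPM against 31.4, 1.34 and 12.3 CPM. Both A549 groups held 1 library far below the others, replicate 1 in wild type and replicate 2 in knockout, and the groups overlapped widely. Its log2 fold change in A549 was -0.63 with an SE of 0.98, ranging from -1.75 to -0.09 with 1 library left out, and chromosome arm 2q as a whole had a median of -0.46 over 650 genes in that comparison.

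SCN9A overlaps an antisense gene, AC010127.1 in GENCODE 29, whose exons share 1122 bases with its 13.74 kb of exon. The counted symbol SCN1A-AS1 was taken to be this antisense RNA. It had no exon length matched by symbol in that annotation, and the identity was not tested. The libraries came from a stranded kit, but the strand setting of the counting is not given in the sources used here. Whether reads from the shared bases were assigned to the right strand is therefore not known. In A549 the ratio of SCN9A to SCN1A-AS1 counts stayed between 3.34 and 4.95 over the 6 libraries, while SCN9A itself spanned 26.7-fold and the antisense RNA 26.2-fold. In H1299 the antisense RNA spanned 2-fold while SCN9A spanned 49.5-fold. There SCN1A-AS1 had 95, 91 and 51 counts in wild type and 133, 110 and 103 in knockout, or 3.14, 2.61 and 2.27 CPM against 4.31, 4.54 and 3.23 CPM. The ratio of SCN9A to it was 0.0549 to 0.431 in H1299 wild type and 1.02 to 1.65 in H1299 knockout.

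**Figure D2:**
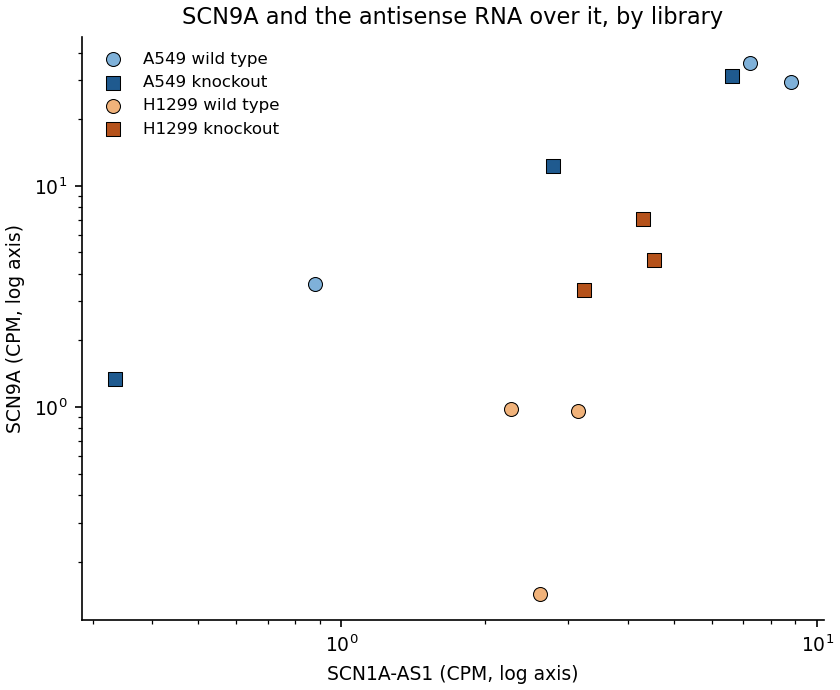
SCN9A against the antisense RNA SCN1A-AS1 in each library, in CPM on log axes, by line and genotype. The 6 A549 libraries lie along a line of near-constant ratio (3.34 to 4.95), whereas in H1299 SCN9A differs between genotypes at antisense levels between 2.27 and 4.54 CPM.

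TRPM6 is known for magnesium uptake in kidney and gut and lies at chr9:74722495-74888094 (minus strand). In A549 it had 12, 59 and 95 counts in wild type and 227, 280 and 405 in knockout, or 0.756, 2.9 and 5.32 CPM against 7.6, 9.39 and 10.1 CPM. In H1299 it had 1, 17 and 45 counts in wild type and 86, 96 and 138 in knockout, or 0.033, 0.487 and 2 CPM against 2.78, 3.96 and 4.33 CPM. Knockout libraries stood above wild-type libraries in both lines, and in both the wild-type libraries were widely spread, 7.03-fold in A549 and 60.5-fold in H1299. The log2 fold change was 1.56 (SE 0.51) in A549 and 2.26 (SE 0.68) in H1299. Without wild-type replicate 3 it was 2.26 in A549 and 3.74 in H1299, and without wild-type replicate 1 it was 1.14 and 1.65.

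TRPM7, the close relative of TRPM6 that most cell types use, was the most abundant of the 8 genes in CPM and lies at chr15:50552473-50686815 (minus strand). In A549 it had 900, 1986 and 2368 counts in wild type and 3606, 3111 and 4530 in knockout, or 56.7, 97.5 and 133 CPM against 121, 104 and 113 CPM. The A549 groups overlapped, and the log2 fold change of 0.22 (SE 0.27) became -0.03 without wild-type replicate 1. In H1299 the levels were 57.4, 57 and 59.7 CPM in wild type and 67.3, 71.7 and 68 CPM in knockout. These groups were tight and separate, 1.19-fold apart. Per kilobase of exon TRPM7 stood well above TRPM6 in each group, at 9.08 ± 0.664 against 0.982 ± 0.139 CPM per kb in A549 knockout and 4.68 ± 0.117 against 0.0914 ± 0.112 in H1299 wild type. An antisense gene, AC084756.1, overlaps TRPM7 exons by 606 bases.

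CACNG7 encodes a gamma subunit that acts on AMPA-type glutamate receptors and lies at chr19:53909335-53943941 (plus strand). In A549 it had 269, 197 and 436 counts in wild type and 170, 172 and 170 in knockout, or 17, 9.67 and 24.4 CPM against 5.69, 5.77 and 4.23 CPM. In H1299 it had 525, 655 and 441 counts in wild type and 1010, 554 and 989 in knockout, or 17.3, 18.8 and 19.6 CPM against 32.7, 22.8 and 31 CPM. Knockout was below wild type in A549 and above it in H1299, with separate groups in each line and log2 fold changes of -1.72 (SE 0.32) and 0.64 (SE 0.14). The difference between the lines was not tested. Among the gamma genes, A549 wild type also held CACNG4 (9.63 ± 1.46 CPM per kb), CACNG6 (21 ± 8.07) and CACNG8 (1.07 ± 0.0413), beside 6.08 ± 2.63 for CACNG7, and H1299 wild type held CACNG6 (8.65 ± 1.38) and CACNG8 (7.29 ± 1) beside 6.63 ± 0.407 for CACNG7.

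Counted together, 7 of the 8 genes passed the low-count filter in A549 and all 8 in H1299. At an adjusted p under 0.05 (edgeR's quasi-likelihood test over all genes), 3 were called in A549, GLRB and GABRE higher and CACNG7 lower, where 2.14% of all 20093 genes were called, 0.99% higher and 1.15% lower. In H1299 GLRB, SCN9A and CACNG7 were called higher and none lower, where 8.84% of 20194 genes were called, 4.66% higher and 4.18% lower. The groups did not overlap for 5 of 7 genes in A549, 4 higher and 1 lower, where this held for 25.5% of all genes tested (13.5% higher, 12% lower). In H1299 they did not overlap for 7 of 8, all higher, where this held for 30.1% (15.6% higher, 14.5% lower). The log2 fold change was above 0 for 5 of 7 genes in A549 and 7 of 8 in H1299, and for 49.2% and 49.5% of all genes. The choice of the genes used this contrast, so these shares carry no weight. In A549 the calls of GLRB, CACNG7 and GABRE were lost in 7, 6 and 4 of 13 other settings. Among these were leaving out any 1 library but knockout replicate 1 for GLRB, any but wild-type replicate 3 for CACNG7, and any knockout library or wild-type replicate 2 for GABRE. In H1299 GLRB and SCN9A lost theirs in the 12-library fit, and CACNG7 in 5 settings, among them leaving out replicate 1 or 3 of either genotype. Near the threshold, GLRB (0.0478) and CACNG7 (0.0455) in A549 lay just inside, and just outside lay TRPM7 (0.0505), GABRQ (0.0563), GABRE (0.0622) and TRPM6 (0.0713) in H1299 and GABRQ (0.0713) in A549.

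**Figure D3:**
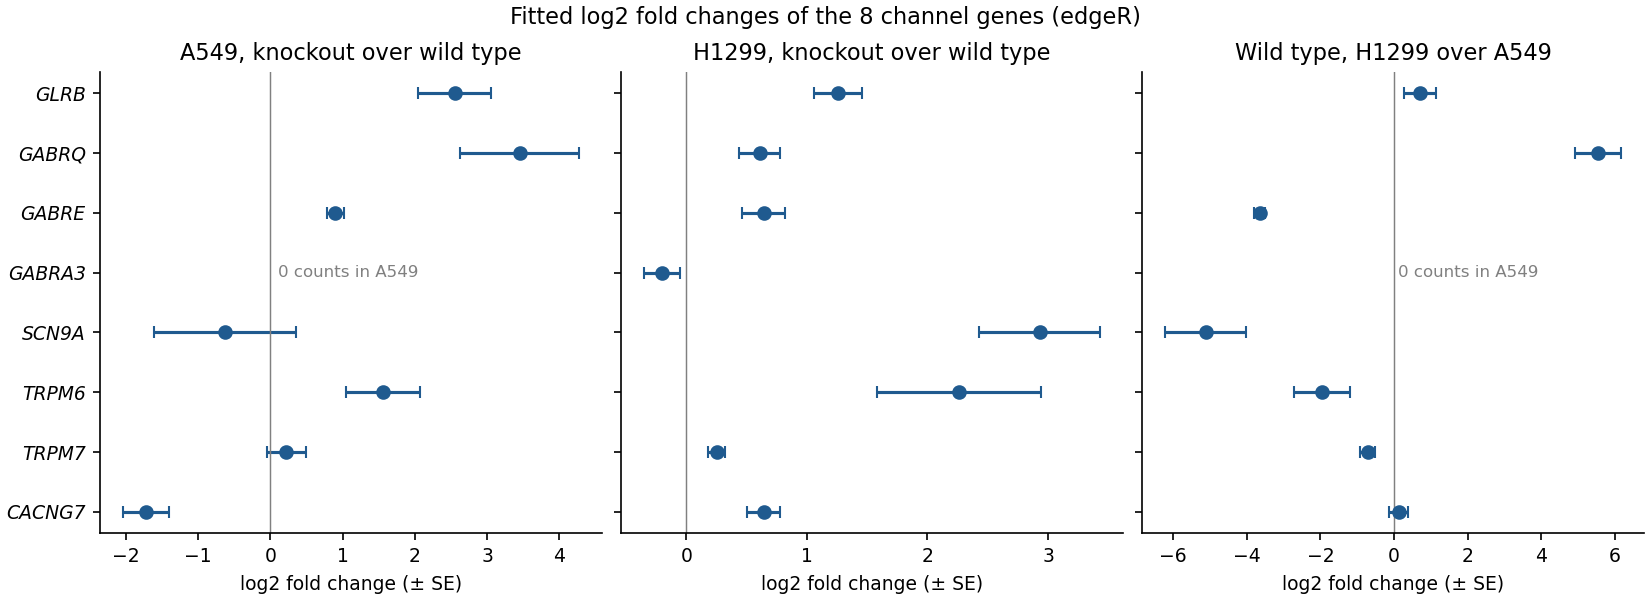
Fitted log2 fold changes (points) with SE (bars) of the 8 genes for knockout over wild type in A549 and in H1299 and for wild-type H1299 over wild-type A549, from edgeR. GLRB, GABRQ, GABRE and TRPM6 lie right of 0 in both knockout panels, CACNG7 lies left in A549 (-1.72) and right in H1299 (0.64), and GABRA3 has no point where A549 is at 0 counts.

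The wild-type lines held different sets of these channels. GABRQ and GABRA3 were higher in H1299, GABRE, SCN9A, TRPM6 and TRPM7 were higher in A549, and GLRB and CACNG7 did not pass the test. All 8 genes passed the filter, and 6 were called, 2 higher and 4 lower in H1299, where 65.6% of 22635 genes were called, 31.8% higher and 33.7% lower. The lines did not overlap for 4 of them, GABRQ, GABRA3, GABRE and SCN9A, where this held for 67.8% of all genes (33.9% in either direction), and 4 of 8 log2 differences were above 0, where this held for 49.3%. GABRA3 was at least 153-fold higher in H1299, against a floor of 3 counts over the A549 wild-type libraries. With 0 counts in A549 it passed the low-count filter only through H1299, so its call is no support for a difference. The log2 difference of GABRQ was 5.53 (SE 0.63, adjusted p 4.86e-06, edgeR), or 46.4-fold, on 8 A549 wild-type counts. It was 5 without A549 wild-type replicate 1 and 6.89 without replicate 3. With 0 to 6 counts in A549 wild type, GABRQ passed the filter only through the other groups. These low counts also entered its choice, so its call is no support for a difference either. GABRE was lower in H1299 at a log2 fold change of -3.64 (SE 0.15, adjusted p 5.59e-10), which is 12.5-fold higher in A549. SCN9A was 34.6-fold higher in A549 (log2 fold change -5.11, SE 1.1, adjusted p 0.00109, edgeR). Its highest H1299 wild-type library (0.978 CPM) was below its lowest A549 wild-type library (3.59 CPM). The low H1299 wild-type counts of SCN9A entered its choice, so its call is no independent support for a difference.

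TRPM7 was lower in H1299 at a log2 fold change of -0.72 (SE 0.21, adjusted p 0.00877, edgeR), although its lowest A549 wild-type library (56.7 CPM) was below all 3 of H1299 (57 to 59.7 CPM). Without A549 wild-type replicate 3 it was -0.41 with an adjusted p of 0.0512. TRPM6 was lower in H1299 at -1.95 (SE 0.76, adjusted p 0.0364), also with overlapping libraries. That call was lost in 6 of 12 other settings, among them leaving out replicate 1 or 2 of H1299 wild type or replicate 2 or 3 of A549 wild type, with an adjusted p of up to 0.18. It was -3.44 without replicate 3 of H1299 wild type and -1.28 without replicate 3 of A549 wild type. For GLRB the log2 difference was 0.71 (SE 0.44, adjusted p 0.166) and for CACNG7 0.13 (SE 0.26, adjusted p 0.677), so a difference between the wild-type lines was not detectable at this spread.

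Other GABA-A receptor genes differed between the lines as well. A549 wild type held the alpha subunit GABRA5 at 14.6 ± 9.78 CPM per kb, with GABRE at 3.78 ± 0.318 CPM per kb. H1299 wild type held GABRA3 (2.04 ± 0.128 CPM per kb), GABRQ (1.14 ± 0.254), GABRA4 (0.709 ± 0.0721), GABRD (0.506 ± 0.193) and GABRE (0.306 ± 0.0589). The alpha subunits did not overlap between lines: GABRA4 had 0 counts in all A549 libraries and GABRA5 at most 1 count in any H1299 library.

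GABRD had 65 to 91 counts in the H1299 wild-type libraries and 1 to 8 in those of A549. With knockout, GABRA4 was the 1 listed GABA-A gene that passed the test, rising in H1299 by 0.78 (SE 0.12, adjusted p 0.007, edgeR). It remained called in all 13 other settings and was at 0.51 with each library centred within chromosome arms. GABRA5 in A549 was at 0.22 (SE 0.43). GABRD in H1299 was at -0.51 (SE 0.33). GABRA5 in A549 wild type ranged from 546 to 1921 counts, a wider relative spread than that of GABRE (539 to 811 counts).

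**Figure D4:**
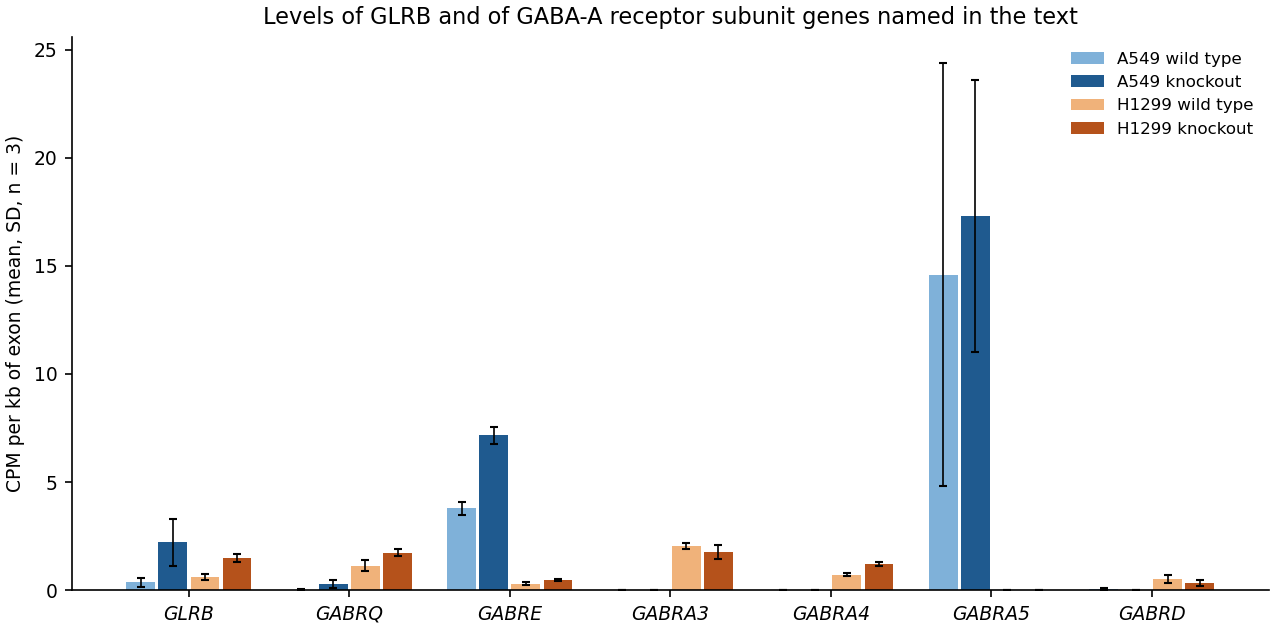
Mean level in CPM per kilobase of exon (bars from 0, SD over 3 libraries) of GLRB and 6 GABA-A receptor subunit genes, by line and genotype. A549 holds GABRA5 with GABRE, H1299 holds GABRA3, GABRA4, GABRQ and GABRD at up to 2.04 CPM per kb in wild type, and GLRB is the glycine receptor gene shown.

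In H1299 SCN8A, another neuronal pore subunit, had a higher level per kilobase than SCN9A. It stood at 1.75 ± 0.0612 CPM per kb in H1299 wild type and 1.71 ± 0.294 in H1299 knockout, against 0.0504 ± 0.0347 and 0.366 ± 0.137 for SCN9A. In A549 wild type SCN9A (1.67 ± 1.24 CPM per kb), SCN8A (0.848 ± 0.217) and the leak channel NALCN (2.29 ± 0.642) were all present. Of 5 listed sodium channel genes tested in H1299 only the auxiliary subunit SCN3B passed, rising by 0.78 (SE 0.15, adjusted p 0.0154, edgeR). That call was lost in 4 of 13 other settings, among them leaving out knockout replicate 2 or 3 or wild-type replicate 3.

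For the wider setting, 13 lists with 261 other genes of ion channels, inhibitory synapses, magnesium transport and REST-mediated repression were counted. In A549 5 of 114 tested passed and all fell: the nicotinic receptor subunit CHRNB4 (-1.42), the potassium channel subunits KCNS3 (-2.1), KCNG3 (-2.2) and KCNF1 (-1.56), and the REST cofactor relative RCOR2 (-1.8). Leaving out wild-type replicate 2 ended all 5 calls, and leaving out any 1 knockout library ended those of CHRNB4, KCNG3, KCNF1 and RCOR2. None rose at an adjusted p under 0.05 by edgeR, 12 rose and 23 fell at an unadjusted p under 0.05, and DESeq2 called 3 higher and 13 lower. In H1299 27 of 113 passed, 13 higher and 14 lower, and 8 to 21 passed with 1 library left out. These shares were 4.39% and 23.9%, beside 2.14% and 8.84% of all genes, and the median log2 fold change of the lists was 0.01 and 0, beside -0.01 and 0 for all genes. The listed genes that moved in H1299 included the potassium channels KCNA6 (1.78, SE 0.24) and KCNJ2 (-2.22, SE 0.17), the GABA-synthesising enzyme GAD1 (-2.06, SE 0.24), the chloride cotransporter SLC12A7 (-1.63, SE 0.2), and the calcium channel genes CACNB4 (1.25, SE 0.27) and CACNA1A (-2.02, SE 0.49). GAD1, SLC12A7, KCNA6 and KCNJ2 remained called in all 13 other settings, and CACNB4 and CACNA1A lost the call in 4 each, both without knockout replicate 2 or 3, CACNB4 also without knockout replicate 1 and CACNA1A without wild-type replicate 1 or 3.

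Magnesium transport, the known role of TRPM6, was covered by 12 other genes, all of them tested. By edgeR none passed in A549, where the median log2 fold change was 0.04, and in H1299 SLC41A2 (0.89) and TUSC3 (0.43) rose and SLC41A1 (-0.31) fell. The call of SLC41A1 was lost with any 1 library left out, and it was at -0.03 with arms centred. Without knockout replicate 3 SLC41A2 and TUSC3 lost theirs, TUSC3 also without wild-type replicate 3. Of the 12 genes of REST and its partners, HDAC2 (0.41) and REST itself (0.32) rose in H1299 and RCOR3 (-0.54) fell, but with each library centred within chromosome arms REST was at -0.09, HDAC2 at 0.19 and RCOR3 at -0.26, none of them called. REST and HDAC2 also lost the call without knockout replicate 2 or 3 or wild-type replicate 3, REST without wild-type replicate 1 and HDAC2 without wild-type replicate 2. Of the 19 neuronal markers 9 could be tested in each line, none passed by edgeR in A549, where their median log2 fold change was -0.42, and TUBB3 fell in H1299 (-0.76, SE 0.09, adjusted p 0.00293, edgeR). Their part in the channel values was not tested.

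On the chromosome, GLRB had 1 measured neighbour within 500 kb, the growth factor gene PDGFC at 104.7 kb, and it rose with GLRB in both lines. PDGFC had 1.01, 2.26 and 1.96 CPM in A549 wild type and 5.23, 6.84 and 14.1 CPM in A549 knockout, and 23, 18.1 and 18.3 CPM in H1299 wild type against 45.1, 27.9 and 40 CPM in H1299 knockout. Knockout libraries were above wild-type libraries in each line. By edgeR its log2 fold change in A549 was 2.29 (SE 0.44, adjusted p 0.0458). The H1299 value was 0.93 (SE 0.17, adjusted p 0.014). The arm that carries both, 4q, was itself shifted upward, with a median log2 fold change of 0.16 over 399 genes in A549 and 0.39 over 383 genes in H1299, where 11.2% of genes were below 0. With each library centred within arms, PDGFC was at 2.13 (adjusted p 0.0569) in A549 and 0.54 (adjusted p 0.0953) in H1299, and GLRB was at 2.4 and 0.85. In A549 the call of PDGFC was also lost when any library other than knockout replicate 1 was left out, and in H1299 without knockout replicate 3 or wild-type replicate 3.

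The 3 GABA-A genes on the X chromosome lie close together, GABRE and GABRA3 191.6 kb apart, among cancer-testis genes. In H1299 none of 19 other measured genes within 500 kb of GABRA3 passed the test, 1 had an unadjusted p under 0.05 and DESeq2 called none, and the median log2 fold change was 0.01. In A549 ZNF185, 256.9 kb from GABRQ, rose (1.06, SE 0.21, adjusted p 0.0476, edgeR). That call was lost in 7 of 13 other settings, among them leaving out any 1 library other than wild-type replicate 3. Of 5 other measured genes within 500 kb of GABRQ in A549, ZNF185 included, 3 were higher and 0 lower at an unadjusted p under 0.05. DESeq2 called 1 of them higher, and their median log2 fold change was 0.33. GABRE had no other measured gene within 500 kb in A549. Next to CACNG7, CACNG6 at 48.3 kb fell in H1299 (-1.16, SE 0.13, adjusted p 0.00266) while CACNG7 had more counts there, and CACNG8 at 19.1 kb was at 0.09 (SE 0.09). Arm Xq had a median log2 fold change of 0.02 in A549 and 0.05 in H1299, and 19q of 0.2 and -0.03. For SCN9A, TRPM6 and TRPM7 no neighbour passed in either line by edgeR. At an unadjusted p under 0.05, 1 of 2 near SCN9A was lower and 1 of 4 near TRPM6 and 5 of 17 near TRPM7 were higher in A549, where DESeq2 called 1, 1 and 2. In H1299 these were 0 of 3, 1 of 4 and 2 of 13, and DESeq2 called none.

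**Figure D5:**
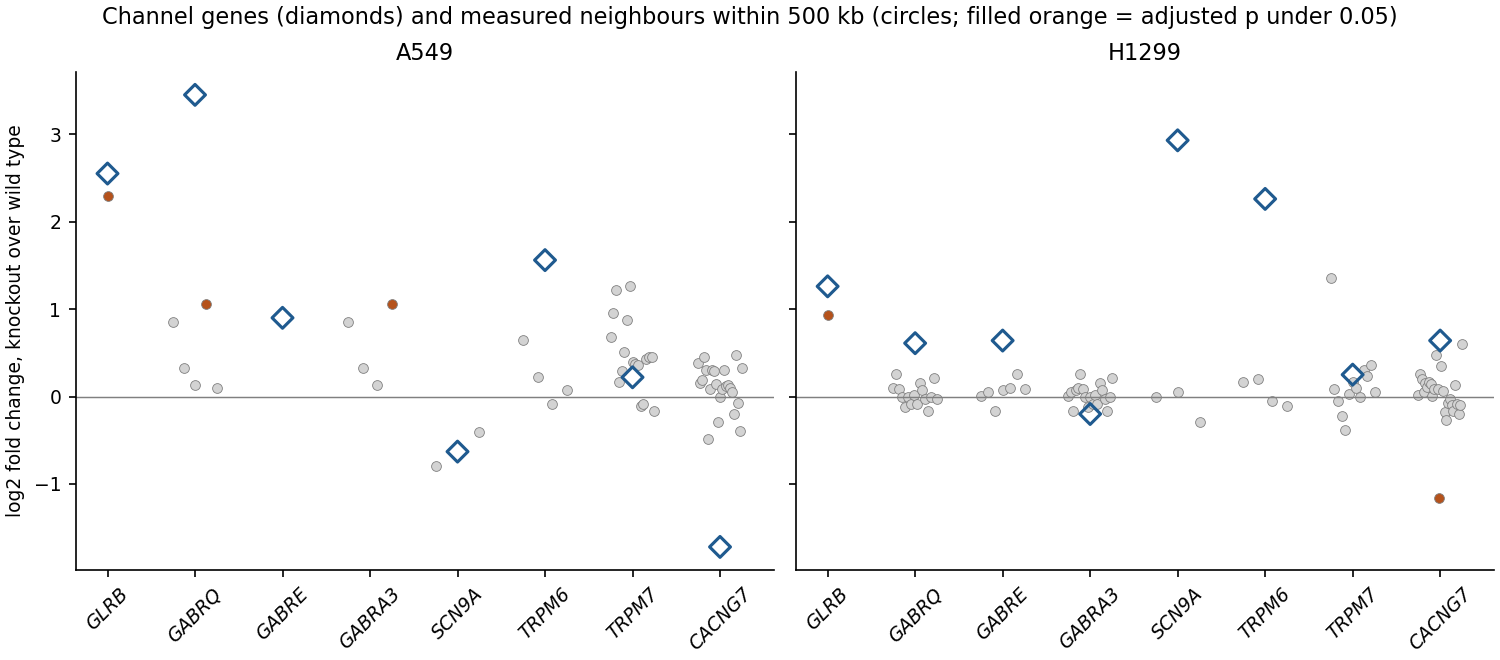
Log2 fold change, knockout over wild type, of each channel gene (diamonds) and of its measured neighbours within 500 kb (circles, orange where the adjusted p was under 0.05), by line. PDGFC sits beside GLRB in both lines (2.29 and 0.93), whereas SCN9A (2.93) and TRPM6 (2.26) in H1299 stand far from their neighbours; GABRA3 has no diamond in A549, where it had 0 counts.

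The genes with the most similar pattern to each defining gene were taken from 13849 candidates by the root mean square difference of centred log2 CPM over the 12 libraries, which share their line and genotype structure. For GLRB these included VWDE (0.57), ADAMTS16 (0.6), NIPAL2 (0.64) and NAV3 (0.7), against a median candidate at 1.25. For GABRQ they were FAM50B (0.66), FGF12 (0.86), WLS (0.87), FAM221A (0.96) and ARHGEF5 (0.98), against 2.72. For SCN9A the nearest were less near, PRKAA2 (1.25), SPP1 (1.27), BMPR1B (1.27), DOCK10 (1.36) and SLC19A3 (1.38), against 2.32. Candidates needed a mean log2 CPM of at least 0 over the 12 libraries. GABRA3 lay below that level and could not be listed. None of the other channel genes was among the nearest.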

How the data were processed

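The authors deposited whole-number counts for 59050 symbols in each library, unnormalized. Per the labels' protocols, a stranded kit with poly-A selection received 1 µg of RNA. The submitters' processing notes name bcl2fastq 2.20.0.422 and, as build, the mouse assembly GRCm38.p6, while all symbols are human. Aligner, counter and strand setting are not given in the sources used here.

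The 8 genes and the lists were chosen with earlier results of these data known. In R 4.3.3, genes were kept by filterByExpr (minimum count 10), scaled by TMM and tested with the quasi-likelihood test of edgeR 4.0.16, with Benjamini-Hochberg adjusted p under 0.05 over all genes. Knockout was compared with wild type within each line of 6 libraries, and the wild-type lines in 1 fit of all 12. An exact two-sided permutation test of 1 gene could not reach below 0.1 here (10 splits of 3 against 3), hence the model's p-values. CPM per kb used the union of exons in GENCODE 29 (GRCh38), where 56159 symbols (95.1%) were found once; coordinates and neighbours come from it. Chromosome arms were split at approximate centromere positions. The floor of 3 counts covers counting error only.

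The text names the 8 genes, receptor genes with at least 10 counts in 3 libraries, up to 4 called genes with the smallest adjusted p per list, the 5 nearest patterns, and neighbours within 500 kb. Some genes that this rule names are not reported here. The alternatives were RLE size factors, no filter, 1 CPM in 3 libraries, DESeq2 1.42.0, limma-voom (limma 3.58.1), centring within chromosome arms, the 12-library or 6-library fit and each library left out in turn. Tested on simulated data, the A549 fit over 19734 genes recovered 6% of 1.5-fold, 43.3% of 2-fold and 92.4% of 4-fold changes, with 6% of its calls false. The H1299 fit over 19913 genes recovered 46.3%, 92.5% and 100%, with 8.6% false. The fit between lines over 22007 genes recovered 13.4%, 65.7% and 97%, with 2.5% false.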

Additional observations from a re-analysis of the deposited data

Results flagged for a closer look

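Of the 48 genes searched, which were the channel genes and the listed or marker genes picked by the naming rule, 5 had all knockout libraries on one side of wild type in A549 and on the other side in H1299. The naming rule takes mostly genes called in a comparison, so the share over all genes is no measure of an excess here. That pattern held for 635 of all 18007 genes tested in both lines, or 3.53%. Among all 91 listed genes tested in both lines it held for 6, which adds KCNAB1 and KCNC4, and among 47 neighbours for CETN2; these 3 are named after their values were seen. The difference between the lines was not tested for any of them. CACNG7 had a log2 fold change of -1.72 in A549 and 0.64 in H1299. The potassium channel subunit KCNG3 was at -2.2 in A549 and 0.62 in H1299. The lysosomal channel MCOLN2 was at -0.77 and 0.73, the REST cofactor relative RCOR2 at -1.8 and 0.54, and RCOR3 at 0.22 and -0.54.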

How the results depend on the processing

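The 430 genes called in A549 became 1275 without a filter, 1543 with DESeq2, 1772 in the 12-library fit and 241 after centring within arms. They ranged from 10 (without wild-type replicate 2) to 1016 (without wild-type replicate 3) when 1 library was left out. The 5 listed genes called in A549 became 16 without a filter, 16 with DESeq2, 15 in the 12-library fit, 3 with limma-voom and 3 after centring, and 0 to 12 with 1 library left out. The 1786 genes called in H1299 became 3077 without a filter and 559 in the 12-library fit, and 471 (without knockout replicate 3) to 1469 with 1 library left out. The 27 listed genes called in H1299 became 16 after centring, 10 in the 12-library fit and 8 to 21 with 1 library left out. The 14844 genes called between the wild-type lines stayed within 1.5 times in every setting run, as did the 99 listed genes. TRPM7 in A549 ranged from -0.03 (without wild-type replicate 1) to 0.54 (without wild-type replicate 3), and CACNG7 between the lines from -0.2 (without A549 wild-type replicate 2) to 0.49 (without A549 wild-type replicate 3). REST in H1299 turned to -0.09 after centring. The cause was not tested. As a description, since the choice of GLRB and SCN9A rests on these contrasts, GLRB ranged from 2.14 to 2.97 in A549 and from 0.85 to 1.48 in H1299, and SCN9A in H1299 from 2.38 to 3.32. No paired analysis was possible because the labels give no replicate numbers shared between groups. Few counts limit GABRQ in A549 wild type (0 to 6) and TRPM6 (1 to 45) and SCN9A (5 to 29) in H1299 wild type.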
